A study of Mus musculus with 31 samples.

Results

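Tet1, Tet2, Tet3 and Tdg encode the enzymes that start and complete the removal of 5-methylcytosine through oxidation. They were examined as 4 genes in the RNA tables of mouse embryonic stem (ES) cells with and without Srap1, at fixed spans on build mm9: Tet1 on chromosome 10 from 62267300 to 62342800, Tet2 on chromosome 3 from 133126000 to 133208500, Tet3 on chromosome 6 from 83312300 to 83409100, and Tdg on chromosome 10 from 82092000 to 82114500. Each table holds loci put together from that library's own reads, with positions and no gene names, so a locus was taken for a gene where it overlapped the gene's span. The spans caught 7 of 8882, 11 of 9218, 14 of 9295 and 8 of 9214 loci in wild-type replicates 1 to 4, and 88 of 143073 loci in the Srap1 KO.

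The series studied Srap1, a protein with a SRAP domain, in the erasure of oxidized 5-methylcytosine, and the labels describe 31 samples in 18 groups. The RNA groups were wild-type ES cells (4 tables) and co-derived Srap1 KO ES cells (2 tables, identical in every value and counted as 1), both of 129SVxC57/BL6 background and both grown on gelatin with serum, leukemia inhibitory factor, 2i and ascorbic acid. Total RNA was depleted of ribosomal RNA and made into libraries with a stranded kit. No label names separate clones, cultures or animals, and the loci carry no strand, so RNA of an antisense or overlapping gene cannot be told apart from that of the members. The identity of the cells and the loss of Srap1 rest on the labels, because marker genes were not located in these tables.

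Tet1, Tet2 and Tet3 are iron- and 2-oxoglutarate-dependent dioxygenases that oxidize 5-methylcytosine in steps to 5-hydroxymethylcytosine, 5-formylcytosine and 5-carboxylcytosine. Tdg is the DNA glycosylase that cuts out the last 2 of these bases, after which base excision repair restores cytosine. Tet1 and Tet2 are the family members known for their activity in ES cells, while Tet3 is known for its role in the egg and zygote. Ascorbic acid, which every culture here received, is known to raise the activity of Tet enzymes.

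The depth of the tables differed. Levels are FPKM, fragments scaled to transcript length and to library depth. From the bounds deposited around them, a wild-type table rests on 895779 to 926460 fragments and the knockout table on 10804715, and a single locus on chromosome 17 took 61.4% to 62.2% of them in the wild type and 3.51% in the knockout. Pairs of wild-type tables shared 75 to 94 loci with matching ends, a small share that favours loci that agree, and there the scaled median difference was 0.778 to 1.18 standard errors, with 1 to 4 loci per pair over 4 standard errors. These loci do not settle whether the tables are separate cultures, and Tet1 itself had bounds that did not overlap between replicates 1 and 2. Since no label names separate cultures, the wild-type tables were counted as 1 sample as the cautious choice, and their range describes tables. With n = 1 on both sides, no difference between genotypes or genes is tested below and no p-value is printed.

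Tet1 and Tet2 were listed in all 5 tables, while Tet3 and Tdg had no locus in any wild-type table and only short loci in the knockout table. The level of a gene was taken as the FPKM of the locus with the largest overlap with its span, however small. This locus measured 20916 bases for Tet1 in wild-type replicate 3 and 25451 bases for Tet2 in wild-type replicate 1. For Tet3 and Tdg it measured 600 and 603 bases, in the knockout alone. The promoters of Tet1 and Tet2, the genes with a level in every table, are shown for their base composition, with CpG dinucleotides in capitals. They are RefSeq sequences of build GRCm38.p6, 5′ to 3′, 300 bases around the annotated start. Tet1 lies at chr10:62887275-62887574 and Tet2 at chr3:133544341-133544640, both on the minus strand.
Tet1: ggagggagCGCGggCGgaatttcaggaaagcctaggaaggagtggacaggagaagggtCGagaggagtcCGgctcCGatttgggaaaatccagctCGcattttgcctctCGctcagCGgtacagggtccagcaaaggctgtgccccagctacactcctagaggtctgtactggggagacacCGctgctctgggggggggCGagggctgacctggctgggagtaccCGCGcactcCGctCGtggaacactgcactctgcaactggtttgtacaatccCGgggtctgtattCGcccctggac
Tet2: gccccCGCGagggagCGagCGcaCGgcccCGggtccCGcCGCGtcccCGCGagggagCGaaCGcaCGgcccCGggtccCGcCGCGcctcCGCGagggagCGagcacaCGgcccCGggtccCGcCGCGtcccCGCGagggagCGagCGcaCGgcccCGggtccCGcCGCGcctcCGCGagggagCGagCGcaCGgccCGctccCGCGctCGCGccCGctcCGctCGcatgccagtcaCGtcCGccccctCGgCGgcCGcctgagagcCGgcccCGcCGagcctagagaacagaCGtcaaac
The Tet1 window holds 17 CpG, a number that 31.4% of 32851 RefSeq promoter windows of this length reach, against a median of 7 CpG. The Tet2 window holds 57 CpG, which 0.152% of the windows reach, and it contains the 20 bases CACGGCCCCGGGTCCCGCCG in 4 copies, the first pair 42 bases apart. A run of 20 bases in at least 4 copies was found in 66 of the 32851 windows. The Tet3 window has 22 CpG and the Tdg window 26 CpG, so all 4 members lie above the median of the windows. All these counts read the letters of 1 strand, on which CG is its own complement.

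Tet1 was transcribed in both genotypes, with loci over at least 98.5% of its span in every table but wild-type replicate 3 (67.2%). Its level was 30.7 FPKM in wild-type replicate 1 (deposited bounds 25.3 to 36.1), 47.3 FPKM in replicate 2 (41.5 to 53.1), 35.5 FPKM in replicate 3 (30.1 to 40.9) and 33.2 FPKM in replicate 4 (29.4 to 37.0). In the Srap1 KO it was 12.4 FPKM (11.8 to 13.0). The knockout lay below all 4 wild-type tables, and its bounds did not meet any of theirs. Among loci of at least 20000 bases in the same table, Tet1 stood above 65.1% to 87.6% in the wild type and above 48.3% in the knockout. There were 688 to 723 such loci in a wild-type table and 2372 in the deeper knockout table. The sets are unlike, so the ranks cannot be compared between the genotypes.

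Tet2 was also transcribed in both genotypes. Its level was 28.3 FPKM in wild-type replicate 1 (24.0 to 32.6), 29.2 FPKM in replicate 2 (19.2 to 39.1), 42.9 FPKM in replicate 3 (10.2 to 75.6) and 30.4 FPKM in replicate 4 (26.1 to 34.8). The knockout had 17.7 FPKM (16.7 to 18.7). It too lay below all 4 wild-type values, but the wide bounds of replicate 3 enclosed it. Tet2 stood above 59.4% to 85.5% of loci of at least 20000 bases in the wild type and above 65.1% in the knockout, ranks within unlike sets of loci as for Tet1.

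Tet3 had no locus in wild-type replicates 1 to 4. In the Srap1 KO 3 loci fell in its span of 96800 bases and covered 1.53% of it. They were 83317692 to 83318292 at 1.45 FPKM (0.644 to 2.25), 83318398 to 83318779 at 2.49 FPKM (0.881 to 4.09) and 83353496 to 83353999 at 2.06 FPKM (0.960 to 3.17). These are isolated pieces, none wider than 600 bases. RefSeq places Mir6374 and B230319C09Rik over parts of Tet3, and RNA of these genes cannot be told apart from that of Tet3 here. The bounds imply 36.6 fragments in all.

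Tdg likewise had no locus in wild-type replicates 1 to 4. In the Srap1 KO 9 loci of 202 to 603 bases overlapped its span, the last of them mostly beyond the 3′ end, and covered 15.3% of it, with a median level of 3.14 FPKM. The one with the largest overlap, 82102708 to 82103311, had 1.55 FPKM (0.720 to 2.37). The highest, 82113458 to 82113660 near the 3′ end, had 19.7 FPKM (8.79 to 30.7), and the other 8 had 1.49 to 4.31 FPKM. RefSeq lists 2 copies of Tdg elsewhere, Tdg-ps and Tdg-ps2, and Glt8d2 as an overlapping gene. How reads shared with the copies were placed is not given in the sources used, so the level of Tdg is uncertain. The part of shared reads in it was not tested.

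The wild-type tables are shallower, which bears on loci as low as those of Tet3 and Tdg. Scaled to the mean wild-type depth outside the chromosome 17 locus, the knockout fragments come to 1.22 for the whole Tet3 span and 4.22 for the whole Tdg span, and to 0.467 and 0.874 for the richest locus of each. Among wild-type loci of at least 300 bases, the 10th percentile was 9.59 implied fragments in each table. Of 60907 knockout loci of 300 to 1000 bases with 1 to 5 FPKM, 21.7% overlapped any wild-type locus. A wild-type locus of any level counted as an overlap, also a long one of higher FPKM with a short knockout piece inside it. The share therefore does not say how often loci like those of Tet3 and Tdg are listed at wild-type depth. The part of depth in the missing wild-type loci was not tested, and no ratio of the genotypes is given for Tet3 and Tdg.

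**Figure D1:**
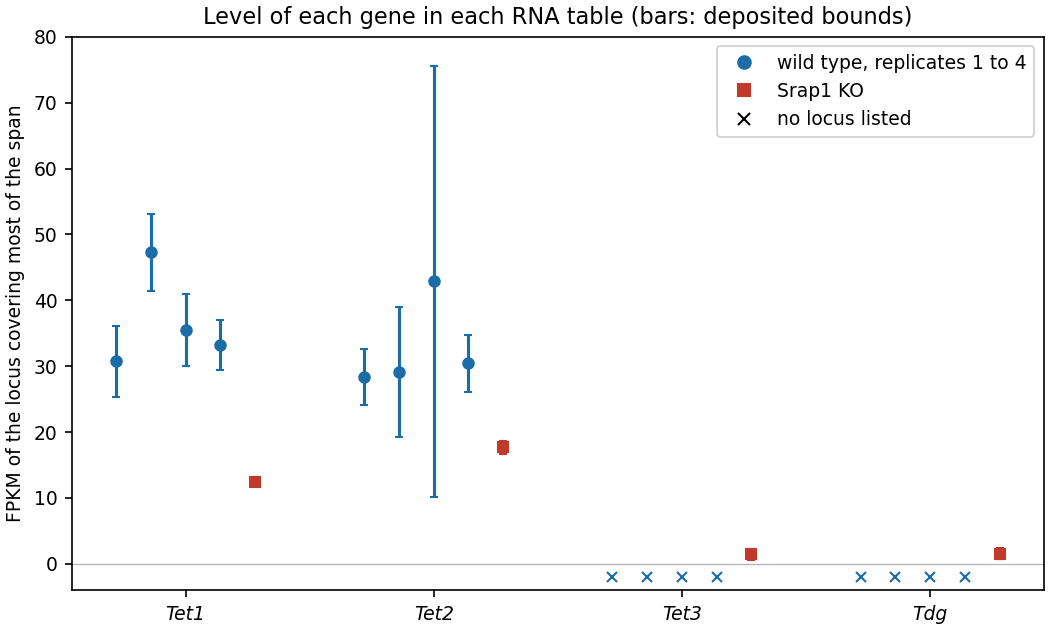
FPKM of the locus with the largest overlap with each gene's span, by gene and RNA table. Circles are the 4 wild-type tables, squares the Srap1 KO table, bars the deposited bounds, and crosses below 0 mark tables with no locus. Tet1 and Tet2 have overlapping wild-type levels, with the knockout below them at 12.4 FPKM and 17.7 FPKM, and Tet3 and Tdg appear in the knockout alone, at 1.45 FPKM and 1.55 FPKM. The values of Tet3 and Tdg come from single loci of 600 and 603 bases.

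In wild-type ES cells Tet1 and Tet2 stood together, while Tet3 and Tdg were not listed and have no level to place in the order. Tet1 exceeded Tet2 in 3 of 4 wild-type tables, with a ratio of Tet1 to Tet2 from 0.827 to 1.62, and their ranges overlapped (30.7 to 47.3 against 28.3 to 42.9 FPKM). The mean of Tet1 was 3.97 FPKM above that of Tet2, and without wild-type replicate 2 it was 0.75 FPKM below it (a difference of -0.75 FPKM). The difference between these neighbours was within their spread. In the Srap1 KO the order was Tet2, Tet1, Tdg and Tet3, at 17.7, 12.4, 1.55 and 1.45 FPKM. The values of Tdg and Tet3 come from single loci of 603 and 600 bases, and their near tie depends on that choice. By the width-weighted mean of all loci Tdg had 3.67 FPKM and Tet3 1.92 FPKM in the Srap1 KO. The bounds imply 115 knockout fragments inside the 22500 bases of Tdg and 36.6 inside the 96800 bases of Tet3. The ratio of Tet1 to Tet2 there was 0.700, below the 4 wild-type ratios, and the bounds of Tet1 and Tet2 did not overlap, whereas those of Tdg and Tet3 did. A ratio within a table does not depend on how the table was scaled, but it depends on the measure: by implied fragments per kb of span, Tet1 was 1.60 times Tet2 in the knockout, within the wild-type range of 0.648 to 2.12.

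The loci were cut differently in each table. Tet1 was assembled as 2, 4, 6 and 4 loci in wild-type replicates 1 to 4, whose union covered 99.7%, 99.7%, 67.2% and 98.8% of the span. In the Srap1 KO it was 45 loci covering 98.5%. Of these, 32 lay inside a wider knockout locus and 32 were under 1000 bases. The widest locus measured 83504, 75757, 28296 and 81371 bases in wild-type replicates 1 to 4 and 43542 bases in the knockout, which thus held more loci and had a shorter widest one than 3 of the 4 wild-type tables.

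Tet2 was assembled as 5, 7, 8 and 4 loci in wild-type replicates 1 to 4, covering 41.9%, 91.9%, 89.0% and 97.4% of the span. Replicate 1 listed nothing beyond 133169811, short of the 5′ end. The knockout had 31 Tet2 loci covering 94.9%, of which 23 lay inside a wider one. Its widest locus, of 58919 bases, was close to those of wild-type replicates 2 to 4 (57651 to 65653 bases). For comparison, 153 transcribed regions of 60000 to 100000 bases present in all wild-type tables held a median of 21 knockout loci (quartiles 8 and 37). The 31 loci of Tet2 lie between these quartiles, and the 45 of Tet1 lie above the upper one and below the 95th percentile of 61.8.

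**Figure D2:**
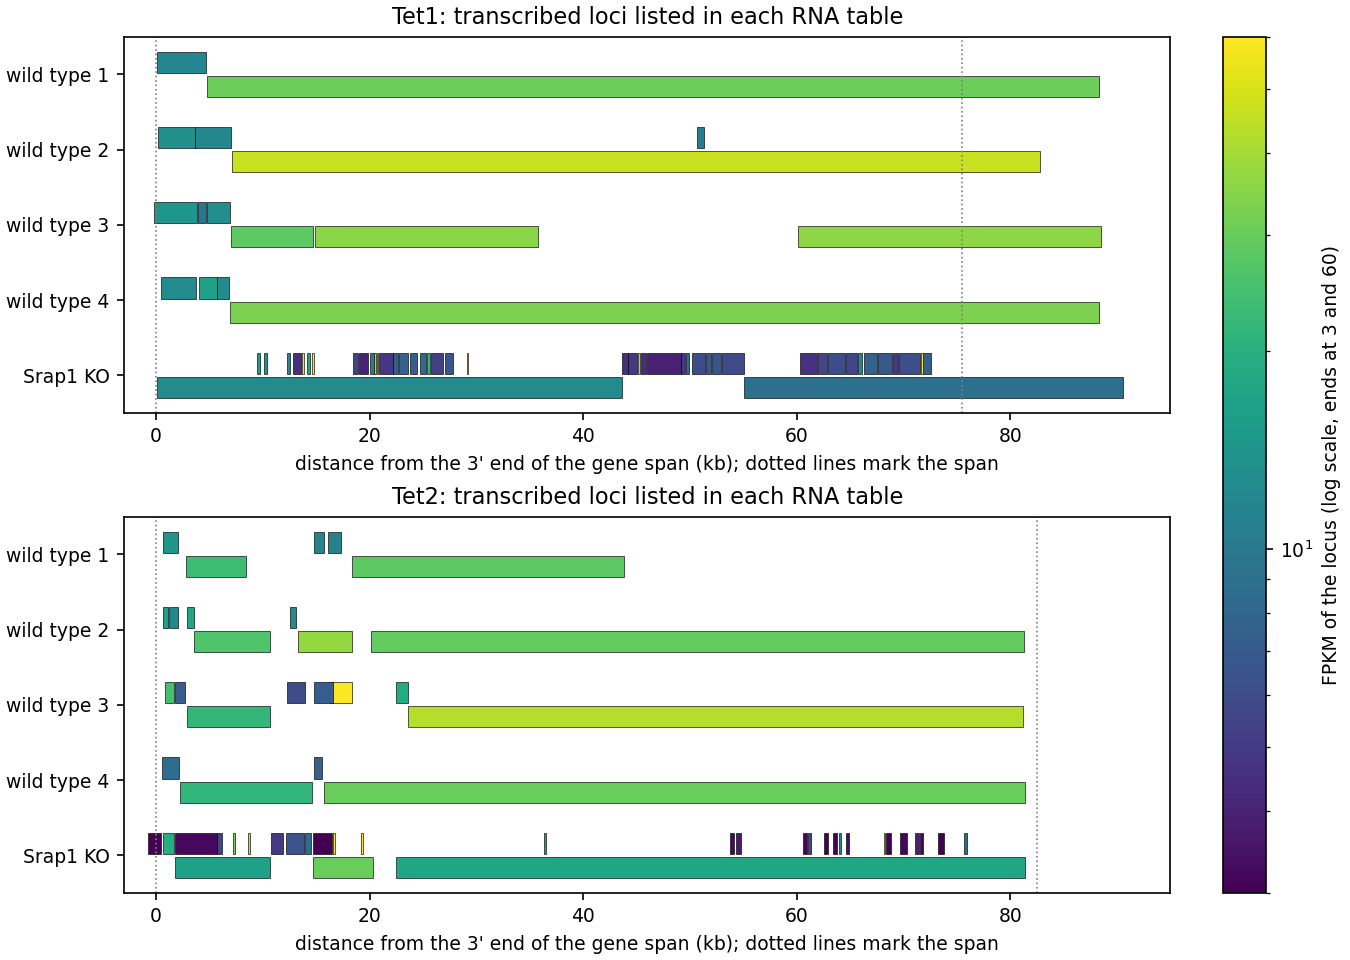
Loci listed over Tet1 (top) and Tet2 (bottom) in each RNA table, by distance from the 3′ end of the gene span in kb. Each box is a locus, coloured by FPKM on a log scale; boxes of at least 5000 bases are drawn in the lower lane of a table and shorter ones in the upper lane. In the wild type the first 7.5 kb of Tet1 are split into darker blocks of 9.56 to 16.6 FPKM beside brighter long loci, while 1 knockout locus of 12.4 FPKM runs through that boundary.

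The 3′-most loci of Tet1 in the wild type were short and low. Tet1 lies on the minus strand, so its 3′ end has the lower coordinates. In every wild-type table the 3′-most part was split off, as 9 loci in all between 62267133 and 62274314 with 9.56 to 16.6 FPKM. The 6 wild-type loci of at least 5000 bases that followed had 28.6 to 47.3 FPKM. The remaining wild-type locus, of 636 bases in replicate 2, lay inside the gene at 62317962 to 62318598 and had 10.6 FPKM. Every wild-type Tet1 locus under 5000 bases was thus lower than every longer one, at the 3′ end and in the middle of the gene, so position and width cannot be told apart.

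The locus with the largest overlap with the outermost 10% of the span was then read at each end, called the 3′ window and the 5′ window. In the 3′ window of Tet1 it had 11.9, 13.4, 14.4 and 12.5 FPKM in wild-type replicates 1 to 4 and 12.4 FPKM in the Srap1 KO. The knockout lay inside the wild-type range there, and its locus is the one that gave its level of the gene. In the 5′ window the wild-type tables had 30.7, 47.3, 36.3 and 33.2 FPKM and the knockout 8.99 FPKM (8.43 to 9.56), below all of them. Tet1 loci ran 7323 to 12955 bases past the span in the wild type and 15031 bases past it in the knockout. The 5′ window of Tet1 thus lies inside the transcribed stretch. In replicates 1, 2 and 4 the locus read there is the long one of 75757 to 83504 bases that already gave the level of the gene, so these values repeat that level and are no separate reading of the 5′ end. The ratio of the 5′ to the 3′ level was 2.52 to 3.53 in the wild type and 0.725 in the knockout. That ratio lay outside the wild-type range and differed by more than 2-fold, which also held for 35.8% of 243 transcribed regions of at least 20000 bases with a locus at both ends in every table. In 22 of these 243 regions the ratio was 1 in every table, so they could not meet the rule and they lower the share. The knockout locus at the 3′ end spans 43542 bases and takes in sequence that the wild-type blocks of 3287 to 4599 bases do not, so the 3′ values come from unlike loci, and the ratio compares loci of unlike width in both genotypes.

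The same windows were read in Tet2. In its 3′ window the wild-type tables had 23.3, 26.2, 21.8 and 21.4 FPKM and the knockout 16.3 FPKM (15.1 to 17.4). In the 5′ window replicates 2, 3 and 4 had 29.2, 42.9 and 30.4 FPKM, replicate 1 listed no locus, and the knockout had 17.7 FPKM. The knockout was lower in the 3′ window; the 5′ loci are those that gave the level of Tet2 and add no further reading. The ratio of the 5′ to the 3′ level was 1.11 to 1.97 in those wild-type tables and 1.09 in the knockout. In the 3′ window Tet2 was higher than Tet1 in all 4 wild-type tables, with a ratio of Tet1 to Tet2 of 0.511 to 0.662, and in the knockout, with 0.762, above the wild-type range. The order of these genes in the wild type thus differed between the 3′ loci and the long locus.

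**Figure D3:**
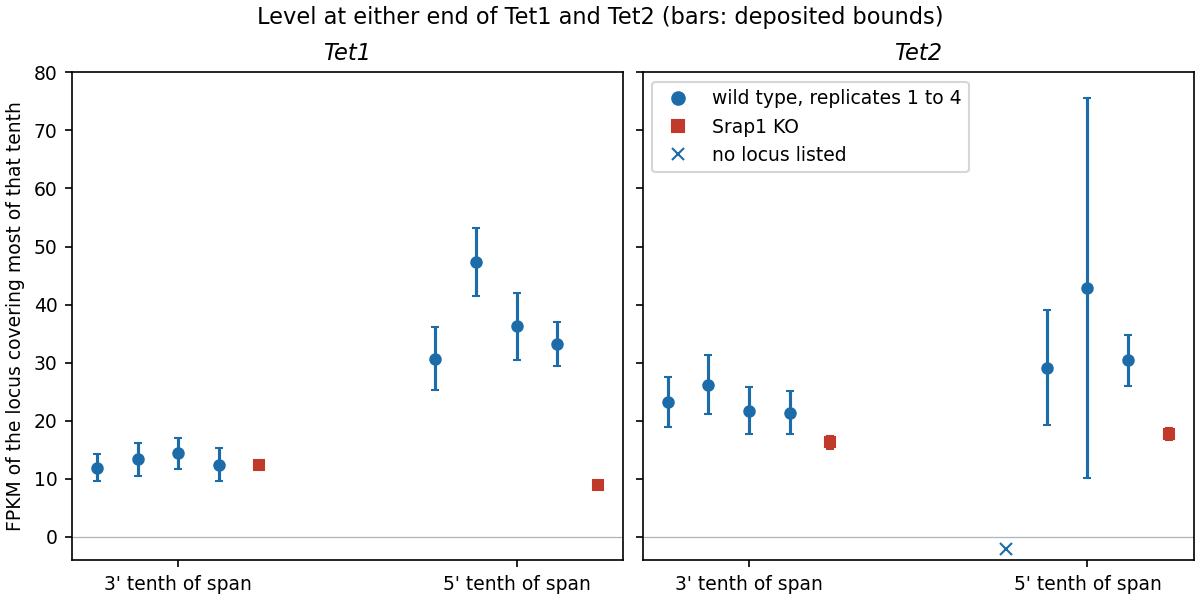
FPKM of the locus with the largest overlap with the outermost 10% at the 3′ and 5′ ends of the Tet1 and Tet2 spans. Circles are wild-type tables, squares the Srap1 KO table, bars the deposited bounds, and the cross marks wild-type replicate 1, which listed no locus at the 5′ end of Tet2. The knockout Tet1 value of 12.4 FPKM falls among the wild-type values in the 3′ window, and its 8.99 FPKM falls below all of them in the 5′ window. Tet1 loci run past the 5′ end of the span, and in wild-type replicates 1, 2 and 4 the locus read there is the one that gave the level of Tet1.

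The comparison of the genotypes asks whether RNA of the demethylation enzymes differs without Srap1. Tet1 had a wild-type mean of 36.7 FPKM ± 7.34 (SD over 4 tables) and 12.4 FPKM in the knockout, a log2 difference of -1.49 in FPKM + 1. The knockout value comes from the locus at 62267359 to 62310901, which includes the 3′-most stretch of the gene. The loci that gave the wild-type levels start at 62272091 to 62282177 and leave the low 3′ blocks out. This difference therefore compares loci over unlike stretches of Tet1. A gene counted as different when the knockout lay outside the wild-type range and the log2 difference was at least 1 in size. Of the 2 members with a level in every table, Tet1 met this rule and Tet2 did not. Over 3461 transcribed regions found in every table the rule called 33%, with 12% higher and 20.9% lower, and over 1003 such regions of at least 20000 bases it called 23.2% lower. A further 254 regions found in all 4 wild-type tables had no knockout locus and were left out, so the share that is lower may be understated. The call of Tet1 is therefore one that many regions of these tables share, and 12.5% of the wide regions had a difference as low as that of Tet1 or lower.

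Tet2 had a wild-type mean of 32.7 FPKM ± 6.86 (SD over 4 tables) and 17.7 FPKM in the knockout, a log2 difference of -0.85. It lay outside the wild-type range on the low side, as did 38.6% of the wide regions. A difference as low or lower was found in 28.4% of the wide regions. In the 5′ window, where the wild-type values are mostly those of the main level, the log2 difference of Tet1 was -1.92, past the rule, as for 24.3% of 503 regions at their end of higher coordinates. In the 3′ window it was -0.068 for Tet1, inside the wild-type range, and -0.48 for Tet2, below that range, as were 41% of 485 regions at their end of lower coordinates.

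**Figure D4:**
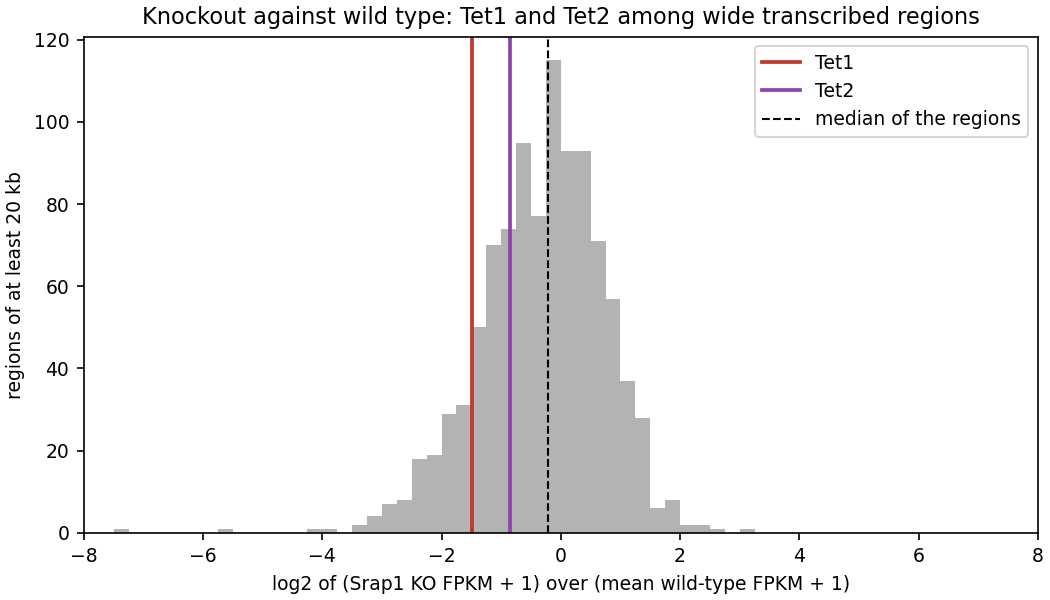
Histogram of the log2 difference of FPKM + 1, knockout against mean wild type, over 1003 transcribed regions of at least 20 kb present in every RNA table. Vertical lines mark Tet1 at -1.49 and Tet2 at -0.85, and the dashed line the median of the regions at -0.22. Both genes lie on the low side of the median and within the spread of the regions.

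The size of these differences depended on how the tables were scaled. The median log2 difference of the 3461 regions was -0.16 as deposited, and Tet1 lay 1.33 and Tet2 0.69 below it (-1.33 and -0.69). When both genotypes were rescaled to the fragments outside the chromosome 17 locus, the median became -1.46, Tet1 -2.81 and Tet2 -2.17, or -1.35 and -0.71 from the median. Scaling multiplies every locus of a table alike, so the distance from the median is fixed by construction, apart from the pseudocount, and says nothing about stability. Depth and the share of the chromosome 17 locus differ between the genotypes here, so an effect of Srap1 cannot be told apart from them.

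Short loci inside the knockout genes carried the highest values. The 11 knockout loci under 300 bases in Tet1 had 14.0 to 1139 FPKM, while the 32 of 300 to 5000 bases had 3.93 to 12.3 FPKM. The locus at 1139 FPKM was 75 bases wide, from 62296420 to 62296495, with bounds of 452 to 1826 FPKM. In Tet2 the 9 loci under 300 bases had 5.65 to 74.4 FPKM and the 19 of 300 to 5000 bases had 2.69 to 19.2 FPKM. No wild-type locus of Tet1 or Tet2 was under 300 bases. In wild-type replicate 3 the highest Tet2 value, 129 FPKM (75.0 to 184), came from a locus of 2019 bases at 133142304 to 133144323. Short loci thus set the highest value of each of these genes in the knockout.

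The transcribed stretch of Tet1 ran past the 5′ end of the span. It ended at 62355595, 62350123, 62355755 and 62355615 in wild-type replicates 1 to 4 and at 62357831 in the knockout, which is 7323 to 12955 and 15031 bases beyond the span. From first to last base it measured 88224, 82690, 88622 and 87867 bases in the wild type and 90472 bases in the knockout, against 82900 bases for the RefSeq gene. RefSeq places a second gene, the long noncoding RNA Gm51805, over part of Tet1. Without strand the tables cannot tell RNA of Gm51805 from that of Tet1. For Tet2 the stretch measured 80401 to 80785 bases in wild-type replicates 2 to 4 and 82098 bases in the knockout, against 81460 bases in RefSeq.

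A DIP library made with IgG from Srap1 KO cells, a control without an antibody to a DNA base, had no stack of reads on any member. It gave 348 reads of mapping quality of at least 30 on Tet1, or 4.61 per kb (95% exact Poisson interval 4.14 to 5.12), and 284 on Tet2, or 3.44 per kb (3.05 to 3.87). Tet3 had 457, or 4.72 per kb (4.30 to 5.17), and Tdg had 83, or 3.69 per kb (2.94 to 4.57). The intervals cover counting error only. The median bin of 10 kb with any read held 2.9 reads per kb on chromosome 10, 2.5 on chromosome 3 and 2.8 on chromosome 6, and 95% of bins held at most 5.1, 4.9 and 5.2. All 4 spans were above their chromosome's median and below that limit, and coverage peaked at 3 to 6 reads. The spans are longer than the bins, and averages over longer stretches vary less, so lying below the limit says little. Among 1730 windows of the control IgG ChIP, 1 overlapped a member, at 133158001 to 133160000 within Tet2.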

How the data were processed

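Members and lists were chosen with earlier results of these data known. The authors' RNA values are FPKM with bounds, per the file headers, in the layout of a Cufflinks table of loci. Build mm9, Cufflinks 2.2.1.0, Bowtie 0.12.8 and Trim Galore 0.3.5 are listed per the submitters' processing notes, with no order or settings. The IgG DIP file holds 1 deposited read per row with a score for mapping quality; its positions and those of the IgG ChIP windows, which have no value, end where mm9 chromosomes do.

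Only the 4 members are named with levels. The spans were given, not read from an mm9 annotation; the distance between the starts of Tet1 and Tdg differs by 544 bases from RefSeq (GRCm38.p6), and the Tet1 span is 75500 bases against 82900. Planned lists of repair genes and cell markers were not analysed, since the loci carry no gene names. Fragments were implied from the bounds, taking each upper bound to lie 2 standard deviations above its value, which fails at some loci with wide bounds (6.88 fragments for Tet2 in wild-type replicate 3). Background regions were wild-type loci merged over 4 tables, with a locus in every table. Differences used log2(FPKM + 1), which understates change at low levels. Python 3.11.15 was used.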

Additional observations from a re-analysis of the deposited data

Results flagged for a closer look

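Over replicates 1 to 4 of the wild type, 15 quantities of Tet1 and Tet2 were examined, and in 5 of them the gap of 1 table to its nearest neighbour passed the 95% critical value of Dixon's test for 4 values. Chance gives that in about 1 of 20 independent groups, but these quantities share loci, so their number cannot be set against it. The width-weighted mean of Tet1 was 43.9 FPKM in replicate 2, and the share of the Tet1 span covered was 67.2% in replicate 3. The level of Tet2 was 42.9 FPKM in replicate 3, with deposited bounds of 10.2 to 75.6 FPKM. The highest Tet2 locus had 129 FPKM, also in replicate 3. The share of the Tet2 span covered was 41.9% in replicate 1.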

How the results depend on the processing

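The ends of the genes and the width limit of 20000 bases were chosen after seeing the data. The call of Tet1 and the absence of one for Tet2 kept their direction and side with a width-weighted mean, a pseudocount of 0.1, median scaling, and without each wild-type table. The width-weighted mean gives most weight to the same long loci. Keeping only loci at least 50% inside the span, or of at least 5 FPKM, left the locus that gave each level in place. These 2 settings repeat the main values and are no check of the calls. With the highest locus the log2 differences turned to 4.91 for Tet1 and 0.40 for Tet2, the wild-type mean of Tet2 became 56.3 FPKM, and Tet1 minus Tet2 became -19.4 FPKM; the knockout value of Tet1 there comes from a locus of 75 bases. In the 3′ window Tet1 was no longer called (-0.068), the wild-type means were 13.0 FPKM for Tet1 and 23.2 FPKM for Tet2, and Tet1 minus Tet2 was -10.1 FPKM. The 5′ window of Tet2 gave no value, because wild-type replicate 1 listed no locus. Tet2 passed the rule when rescaled outside the chromosome 17 locus (-2.17) and by depth-scaled fragments in the span (-1.27). Tet1 passed under both as well, at -2.81 and -1.06, so by depth-scaled fragments Tet2 had the larger difference. Both settings scale to the fragments outside the chromosome 17 locus. In FPKM that scaling moved the median of all regions to -1.46, and 68.4% of them were called. For depth-scaled fragments no share of all regions was computed, and -1.06 and -1.27 are smaller in size than that median. Passing the rule under these settings therefore does not set either gene apart. Without each wild-type table Tet1 minus Tet2 ranged from -0.75 to 7.77 FPKM. The calls over all regions were 416 higher and 725 lower as deposited, 547 and 592 after median scaling, and 34 and 2335 when rescaled outside the chromosome 17 locus. No paired analysis was possible because the knockout is 1 table. No difference between genotypes or genes comes from a test, and the critical value of Dixon's test served only to flag wild-type values. The part of depth in the missing wild-type loci of Tet3 and Tdg was not tested.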
